A study of Mus musculus with 6 samples.

Results

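The transcripts described here encode the nuclear subunits of oxidative phosphorylation, measured in the vastus lateralis, a muscle of the quadriceps, of 3 wild type mice and 3 that over-express FRG1, a gene of the region linked to facioscapulohumeral muscular dystrophy (FSHD). All 6 animals were C57Bl/6J females aged 4 weeks, and each muscle was hybridised to 1 Illumina bead array. The labels name neither the promoter nor the species of the transgene, nor how many lines were used. Members were taken by symbol: Nduf without the Ndufaf assembly factors, Uqcr, Atp5, Cox4 to Cox8, Sdha to Sdhd, Cyc1 and Cycs. The array carried 114 probes for 78 such genes. Of these, 99 probes for 73 genes were retained, out of 10287 genes retained in all. A probe was retained where 3 or more of the 6 arrays had a detection p-value below 0.05. The other 5 genes were Cox6b2, Cox7b2 and Cox8c, which are testis isoforms of cytochrome c oxidase, and Ndufs1 and Sdha. The Ndufs1 and Sdha probes were detected on 0 of 6 arrays each, with lowest detection p-values of 0.119 and 0.279. Subunits with no probe under these symbols, Cycs among them, and the 13 subunits encoded by mitochondrial DNA were not analysed here.

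The respiratory chain passes electrons from NADH through complex I, and from succinate through complex II, to ubiquinone, then through complex III and cytochrome c to complex IV, which reduces oxygen. Complexes I, III and IV pump protons across the inner mitochondrial membrane, and complex V, the ATP synthase, uses the return flow to make ATP. Several subunits of complex IV exist as isoform pairs. In mouse heart and skeletal muscle Cox6a2, Cox7a1 and Cox8b largely take the place of the widely expressed Cox6a1, Cox7a2 and Cox8a.

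Before the results, the arrays were compared as a whole. Summed signal ranged from 10537335 to 13062182, and from 17957 to 20000 probes were detected on an array. Correlations over the retained probes ran from 0.982 to 0.991 among wild type arrays, from 0.99 to 0.993 among FRG1 arrays and from 0.966 to 0.98 between the groups. The Frg1 probe was detected on 0 of 6 arrays, with raw signals of 38.3, 46.5 and 38.0 in wild type muscle and 40.8, 40.0 and 46.1 in FRG1 muscle. The probe therefore checks nothing about the labels or the transgene. In whole muscle, fewer cells of a type and less RNA per cell cannot be told apart.

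The RefSeq start regions of 2 isoform pairs are shown because these pairs carry the isoform comparison made further on. Each line gives the strand of the gene, 5′ to 3′, from 250 bases before to 50 bases after the annotated start in the GRCm38.p6 build. Cox7a1 lies at chr7:30183921-30184220 on the plus strand. Cox7a2 lies at chr9:79759804-79760103, Cox8b at chr7:140900397-140900696 and Cox8a at chr19:7217567-7217866, all on the minus strand. Capitals mark the motif matches, searched on both strands.
Cox7a1: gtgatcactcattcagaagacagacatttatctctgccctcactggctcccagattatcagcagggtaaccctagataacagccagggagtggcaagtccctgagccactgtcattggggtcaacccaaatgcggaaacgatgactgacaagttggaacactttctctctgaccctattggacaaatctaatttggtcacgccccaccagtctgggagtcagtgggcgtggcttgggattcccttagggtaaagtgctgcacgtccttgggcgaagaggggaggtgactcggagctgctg
Cox7a2: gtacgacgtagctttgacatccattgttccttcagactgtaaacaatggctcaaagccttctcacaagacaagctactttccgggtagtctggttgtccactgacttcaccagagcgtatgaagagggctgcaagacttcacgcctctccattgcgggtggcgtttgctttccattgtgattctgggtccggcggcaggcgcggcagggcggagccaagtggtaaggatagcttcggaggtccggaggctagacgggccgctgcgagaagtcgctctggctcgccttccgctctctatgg
Cox8b: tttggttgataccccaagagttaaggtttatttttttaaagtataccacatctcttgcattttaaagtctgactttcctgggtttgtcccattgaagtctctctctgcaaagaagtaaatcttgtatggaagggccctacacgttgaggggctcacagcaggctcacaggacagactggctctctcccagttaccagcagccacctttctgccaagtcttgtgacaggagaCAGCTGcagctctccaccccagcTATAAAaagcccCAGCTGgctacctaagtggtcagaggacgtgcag
Cox8a: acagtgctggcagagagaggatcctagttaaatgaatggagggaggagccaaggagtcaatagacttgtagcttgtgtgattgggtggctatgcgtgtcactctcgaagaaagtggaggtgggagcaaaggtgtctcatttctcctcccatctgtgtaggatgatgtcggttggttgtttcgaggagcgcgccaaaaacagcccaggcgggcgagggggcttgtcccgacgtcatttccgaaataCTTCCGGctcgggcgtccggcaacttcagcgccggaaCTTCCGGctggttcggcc

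Both Cox7a windows held 0 matches to the 6 motifs searched. The Cox8b window held 3 matches, namely 2 MyoD-type E boxes (CAGCTG) and 1 TATA box (TATAAA), which did not overlap. The Cox8a window held 2 matches to the core site of GABP (CCGGAAG, seen here as its reverse complement CTTCCGG), an ETS factor known to bind promoters of respiratory chain genes. Among the retained members, 60 of 73 genes had an entry, with 65 windows in all. The GABP core was in 24.6% of these windows and in 8.86% of all 32851 windows of the same length. The element of NRF1 searched (GCGCATGC), an activator of nuclear genes for mitochondrial proteins, was in 13.8% of member windows and 2.71% of all. The element of the oestrogen-related receptors (TGACCTT) was in 12.3% against 4.72%, and the core of YY1 (AAGATGG) was in 15.4% against 6.34%. The E box was in 9.23% against 16.3%, and the TATA box was in 12.3% against 13.6%. Median GC content was 58.7% in member windows and 52.7% in all windows, and the shares were not adjusted for it.

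The subunit transcripts were abundant and their levels were similar in the groups. The median subunit gene stood at the 98.8 percentile of level, and 62 of 73 genes lay in the brightest 10% of retained probes. After background correction and quantile normalization, 0 genes were higher and 2 genes (2.74%) were lower in FRG1 muscle at a limma adjusted p under 0.05. Over all 10287 genes the same test called 7.53% higher and 7.23% lower. At an unadjusted limma p under 0.05, 1 subunit gene was higher and 8, Uqcrfs1 among them, were lower, against 14.2% and 16.3% of all genes. The 2 genes were Ndufb11 of complex I and Uqcrfs1 of complex III. The Uqcrfs1 probe was detected in wild type muscle only and passed the detection filter through that group, so only a bound on its fold could be given. Its call was kept with no detection filter (-0.56, limma adjusted p = 0.0217). A filter that required detection on every array left the probe out. Of the 72 subunit genes detected in both groups, 1 (1.39%) was lower, against 7.22% of all 10135 genes so detected. The median log2 fold change, FRG1 minus wild type, was -0.03 over the 73 subunit genes and -0.03 over all genes. The 72 subunit genes detected in both groups ranged from -0.47 to 0.34, with 31 above 0 and 41 below. The 95% interval lay wholly within ±0.5, a 1.41-fold change, for 60 of 73 genes.

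**Figure D1:**
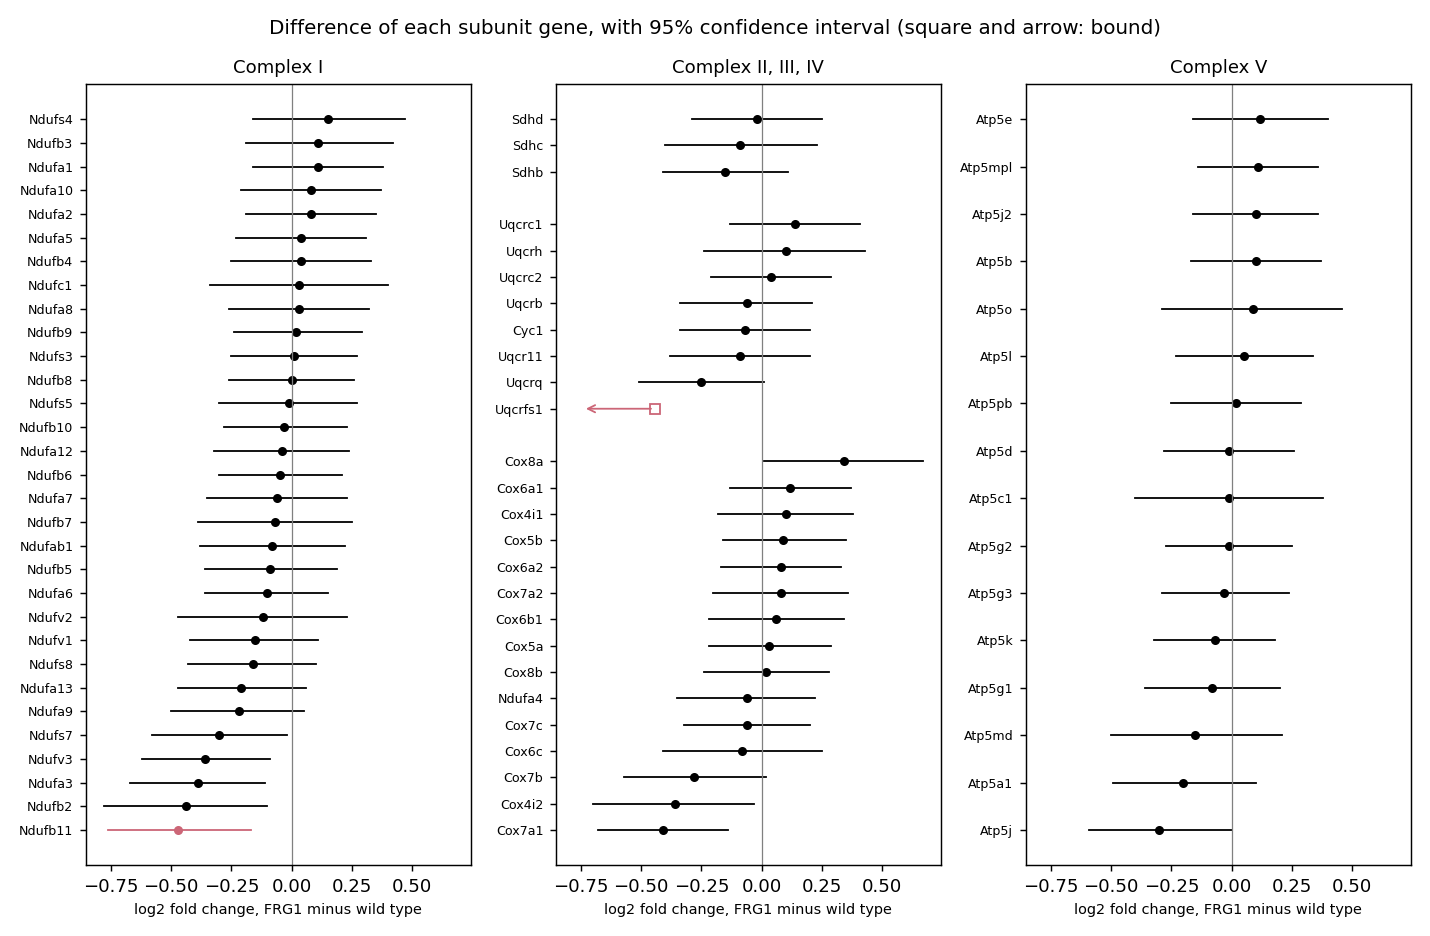
Log2 fold change (x axis, FRG1 minus wild type) of the 73 retained subunit genes, grouped by complex, with the 95% interval of the limma fit as bars; genes past adjusted p 0.05 are coloured, and the open square with an arrow marks Uqcrfs1, for which there is only a bound. Most intervals cross 0, and the points run from -0.47 for Ndufb11 to 0.34 for Cox8a.

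At the level of probes, 1 of 99 member probes (1.01%) was higher and 3 (3.03%) were lower in FRG1 muscle, against 7.1% and 6.71% of all 19563 retained probes. The Uqcrfs1 probe was among the 3. All 4 called probes lay below the brightest 10% of probes. Of the 73 member probes at that level, 0 passed the limma test (5.48% were lower and 1.37% higher at an unadjusted p under 0.05) and their fold changes ranged from -0.41 to 0.34, whereas 9.15% of all probes in the brightest 10% were lower and 7.36% were higher. For 13 genes (17.8%), Uqcrfs1 among them, every FRG1 array was below every wild type array, and for 3 genes (4.11%) every FRG1 array was above. Over all genes these shares were 19.8% and 16.9%.

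**Figure D2:**
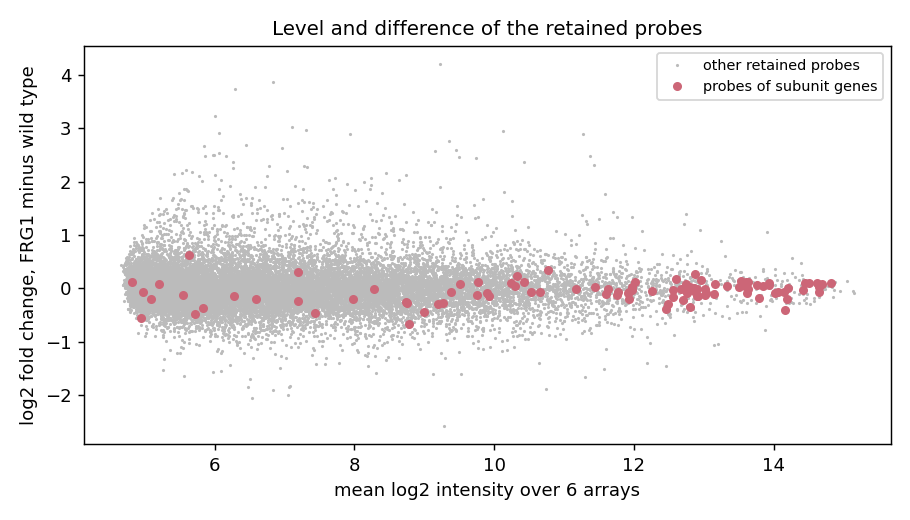
Mean log2 intensity over the 6 arrays (x axis) and log2 fold change, FRG1 minus wild type (y axis), of every retained probe; red points are the 99 probes of subunit genes. The subunit probes crowd at the right, and those in the brightest 10% lie between -0.41 and 0.34.

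Complex I had 31 measured genes, of which 0 were higher and 1 was lower (3.23%, against 7.23% of all genes). At an unadjusted limma p under 0.05, 0 were higher and 16.1% were lower, against 14.2% and 16.3% of all genes. Its median was -0.05, with 12 genes above 0 and 19 below, and the groups stood apart with FRG1 lower for 8 genes (25.8%, against 19.8% of all genes). The called gene was Ndufb11, an accessory subunit of the membrane arm encoded on the X chromosome. Its log2 intensities were 7.58, 7.55 and 7.88 in wild type muscle and 7.29, 7.21 and 7.10 in FRG1 muscle. Every FRG1 array lay below every wild type array. The level was 1.38-fold higher in wild type muscle, a difference of -0.47 ± 0.13 (SE, n = 3 per group; 95% interval -0.76 to -0.17; limma adjusted p = 0.0441). This call was lost in 10 of 13 alternative settings, including the omission of any 1 array, with adjusted p from 0.0273 to 0.231.

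The core subunits of complex I include those that carry its flavin and iron-sulfur clusters, and 5 core subunits were measured. Their differences ran from -0.30 for Ndufs7, which binds the last cluster before ubiquinone, to 0.01 for Ndufs3, with a median of -0.15, and 0 passed the test. The 26 accessory subunits had a median of -0.03. Outside the called gene, the largest differences below 0 were those of Ndufb2 (-0.44 ± 0.15, limma adjusted p = 0.0872) and Ndufa3 (-0.39 ± 0.12, adjusted p = 0.0651). Ndufa3, an accessory subunit of the membrane arm, read 12.60, 12.62 and 12.76 in wild type muscle and 12.21, 12.42 and 12.17 in FRG1 muscle. Its groups did not overlap, although it did not pass the test. The largest difference above 0 was that of Ndufs4, an accessory subunit beside the NADH-oxidising part, with 12.60, 13.02 and 13.03 in wild type and 12.97, 13.06 and 13.08 in FRG1 muscle. Its groups overlapped and the difference was 0.15 ± 0.14 (limma adjusted p = 0.525). The other retained Ndufs4 probes differed by 0.18 ± 0.12 (adjusted p = 0.379) and 0.26 ± 0.13 (adjusted p = 0.205). On the latter every FRG1 array lay above every wild type array.

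Probes of 2 complex I genes gave different calls. For Ndufa10, an accessory subunit, the dimmer probe read 9.34, 8.92 and 9.10 in wild type and 8.64, 8.51 and 8.21 in FRG1 muscle, a difference of -0.66 ± 0.16 (limma adjusted p = 0.0207). The brighter Ndufa10 probe read 12.76, 12.83 and 12.54 in wild type and 12.80, 12.90 and 12.68 in FRG1 muscle, a difference of 0.08 ± 0.13 (adjusted p = 0.735). The groups stood apart on the dimmer probe and overlapped on the brighter one. For Ndufv3, an accessory subunit of the NADH-oxidising part, the brighter probe read 12.97, 12.96 and 13.01 in wild type and 12.60, 12.76 and 12.51 in FRG1 muscle. That difference of -0.36 ± 0.12 did not pass (limma adjusted p = 0.0789), although the groups stood apart. The dimmer Ndufv3 probe went the other way, with 5.0, 5.57 and 5.38 in wild type and 5.78, 6.10 and 5.95 in FRG1 muscle, and passed at 0.63 ± 0.16 (adjusted p = 0.0316). Of the 21 subunit genes with several retained probes, 7 had probes of opposite sign. Which transcript each probe reads was not tested.

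Complex II, succinate dehydrogenase, also serves the citric acid cycle, and 3 of its 4 subunit genes were measured. All 3 differences were below 0, with 0 limma calls and 0 at an unadjusted p under 0.05. Of all genes, 7.53% were called higher and 7.23% lower, and 14.2% and 16.3% were so at the unadjusted p. Sdhb, the iron-sulfur subunit, read 13.01, 12.92 and 13.07 in wild type and 12.90, 12.76 and 12.88 in FRG1 muscle. The groups stood apart by a narrow gap, and the difference of -0.15 ± 0.12 did not pass (limma adjusted p = 0.43). The membrane anchors Sdhc and Sdhd differed by -0.09 ± 0.14 and -0.02 ± 0.12.

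Complex III had 8 measured genes, of which 7 were detected in both groups. Those 7 ran from -0.25 to 0.14 with a median of -0.06, and 0 passed the limma test, also 0 at an unadjusted p under 0.05. Of all genes detected in both groups, 6.91% were called higher and 7.22% lower. At the unadjusted p, 14.2% and 16.3% of all retained genes were higher and lower. The eighth was Uqcrfs1, the Rieske iron-sulfur protein that passes electrons on to cytochrome c1. Its retained probe read 5.23, 5.11 and 5.32 in wild type and 4.74, 4.71 and 4.52 in FRG1 muscle. It was detected on 3 of 3 wild type arrays and 0 of 3 FRG1 arrays, so that it passed the filter through the wild type arrays alone and only a bound on the fold could be given. On these arrays the mean level was at least 1.36-fold higher in wild type muscle. For this, the higher of the dim probe's own signal and the lowest detected signal was taken on each FRG1 array. This bound makes no allowance for error. The fitted difference was -0.56 ± 0.12 (95% interval -0.84 to -0.28, limma adjusted p = 0.0158). This p-value is not independent of the filter, which the probe passed only through the group where it was higher. The probe stood at the 9.52 percentile of level, where most subunits stood near the top. Without the FRG1 array Sample871 the call was lost (-0.49, adjusted p = 0.0797), as it was in the authors' processed values (-0.42, adjusted p = 0.0761). A second Uqcrfs1 probe was detected on 0 wild type arrays and 1 FRG1 array and was not tested. It read 4.49, 4.61 and 4.61 in wild type and 4.75, 4.65 and 4.82 in FRG1 muscle. On that probe, near background, every FRG1 array lay above every wild type array, opposite to the called probe.

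The other complex III subunits did not pass. Uqcrc1, a core protein of the matrix face, read 13.44, 13.41 and 13.55 in wild type and 13.47, 13.73 and 13.62 in FRG1 muscle, and differed by 0.14 ± 0.12 (limma adjusted p = 0.506). Its groups overlapped. Cyc1, cytochrome c1, read 11.92, 12.00 and 11.99 in wild type and 11.77, 12.04 and 11.88 in FRG1 muscle, and differed by -0.07 ± 0.12 (adjusted p = 0.742). Uqcrq, a small subunit, differed by -0.25 ± 0.12 (adjusted p = 0.195) with groups apart.

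Complex IV had 15 measured genes, counting Ndufa4, which later work places there. Its median was 0.03, with 9 genes above 0 and 6 below, and 0 passed the limma test. At an unadjusted p under 0.05, 1 was higher (6.67%) and 2 were lower (13.3%). The 16 measured genes of complex V had a median of -0.01, with 7 above 0, 9 below and 0 limma calls, also 0 at an unadjusted p under 0.05. Of all genes, 7.53% were called higher and 7.23% lower, and 14.2% and 16.3% were so at the unadjusted p. Within complex V, the 5 subunits of the catalytic F1 part ran from -0.20 to 0.12, and Atp5b, the catalytic beta subunit, differed by 0.10 ± 0.12 (limma adjusted p = 0.63). Atp5e, the epsilon subunit, had the largest difference above 0, at 0.12 ± 0.12 (adjusted p = 0.572). Atp5j, coupling factor 6 of the peripheral stalk, had the largest below 0. It read 9.48, 9.14 and 9.42 in wild type and 8.94, 9.06 and 9.15 in FRG1 muscle, groups that overlapped, and the difference was -0.30 ± 0.13 (adjusted p = 0.176). On a dimmer retained Atp5j probe the groups stood apart with FRG1 lower (-0.48 ± 0.17, adjusted p = 0.0908). The 5 small membrane subunits ran from -0.15 to 0.11.

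**Figure D3:**
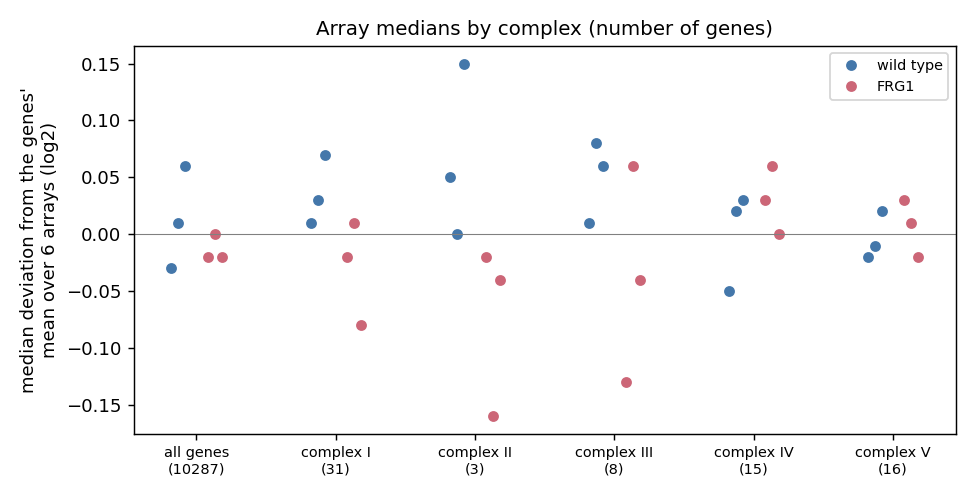
Median deviation of the genes of each complex from their own mean over the 6 arrays (y axis, log2), 1 point per array, wild type in blue and FRG1 in red, beside the same for all 10287 genes. No array median lies farther from 0 than 0.16, and the groups overlap for complexes III, IV and V and meet at a value of 0.01 for complex I.

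Each array's median deviation over the subunit genes of a complex stayed between -0.16 and 0.15. In complex I the medians were 0.01, 0.03 and 0.07 on the wild type arrays and -0.02, 0.01 and -0.08 on the FRG1 arrays. The highest FRG1 array equalled the lowest wild type array at this precision. In complex II the wild type medians were 0.05, 0.00 and 0.15 and the FRG1 medians were -0.02, -0.16 and -0.04. The 2 groups stood apart there, over 3 genes. In complex IV the medians were -0.05, 0.02 and 0.03 in wild type and 0.03, 0.06 and 0.00 in FRG1 muscle, which overlapped.

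Among the muscle isoforms of complex IV, Cox7a1 differed in level between the groups by the most. Its log2 intensities were 14.24, 14.41 and 14.44 in wild type and 14.06, 13.92 and 13.89 in FRG1 muscle. Every FRG1 array was below every wild type array. The means were 14.37 ± 0.11 and 13.96 ± 0.09 (SD, n = 3 each), a difference of -0.41 ± 0.12 (SE; 95% interval -0.68 to -0.14), and the limma adjusted p was 0.0515. The gene therefore missed the threshold, which it passed in 6 of 13 alternative settings, with adjusted p from 0.0184 to 0.176. The difference was below 0 in all 13.

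The other muscle isoforms showed no such gap. Cox6a2 read 14.64, 14.70 and 14.60 in wild type and 14.68, 14.77 and 14.74 in FRG1 muscle, a difference of 0.08 ± 0.11 (limma adjusted p = 0.683). Cox8b read 14.61, 14.75 and 14.56 in wild type and 14.64, 14.63 and 14.71 in FRG1 muscle, a difference of 0.02 ± 0.12 (adjusted p = 0.932). The groups overlapped for both. Of the widely expressed isoforms, Cox7a2 read 9.51, 9.36 and 9.55 in wild type and 9.70, 9.53 and 9.45 in FRG1 muscle, a difference of 0.08 ± 0.13 (adjusted p = 0.712). Cox6a1 read 10.38, 10.42 and 10.29 against 10.48, 10.48 and 10.49, a difference of 0.12 ± 0.11 (adjusted p = 0.527). Its groups stood apart with FRG1 higher, by a narrow gap. Cox8a read 10.40, 10.53 and 10.88 in wild type and 10.88, 10.90 and 11.04 in FRG1 muscle, a difference of 0.34 ± 0.15 (adjusted p = 0.16). For Cox8a the wild type array Sample923 lay just below the lowest FRG1 array and equalled it at this precision, so that the groups barely stood apart. Without Sample923 the difference was 0.48 (adjusted p = 0.0343). Cox4i1, the main form of subunit 4, differed by 0.10 ± 0.13 (adjusted p = 0.655), and Cox4i2, known for its expression in lung, by -0.36 ± 0.15 (adjusted p = 0.142). The Cox4i2 probe was dim, with means of 6.02 in wild type and 5.65 in FRG1 muscle, at the 38 percentile of level.

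**Figure D4:**
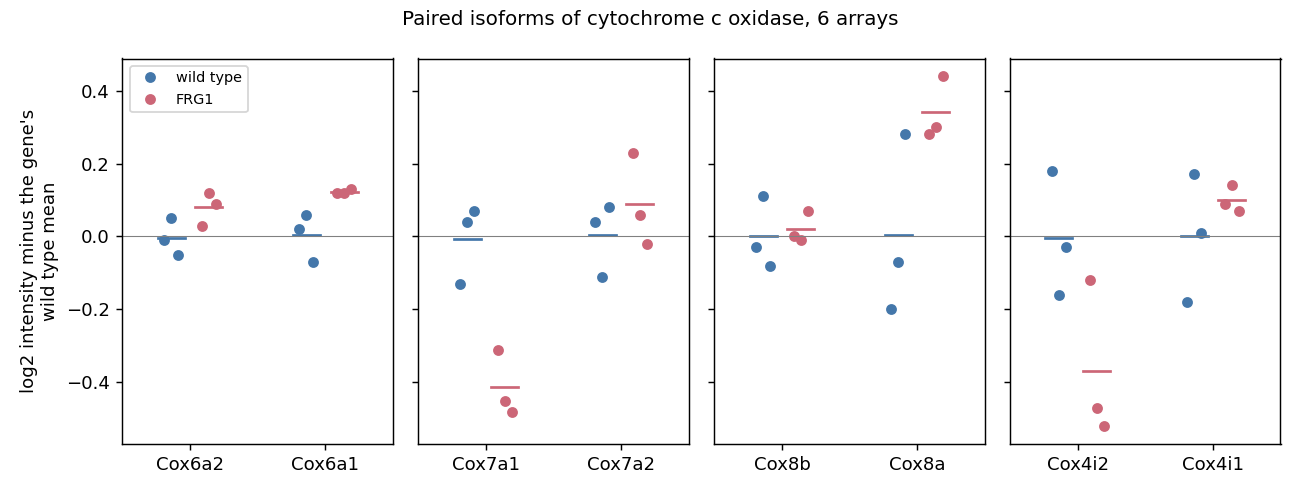
Log2 intensity minus the gene's wild type mean (y axis) of the 4 isoform pairs of complex IV, 1 point per array, wild type in blue and FRG1 in red, with bars at the group means. All 3 FRG1 arrays lie below the wild type arrays for Cox7a1, and the groups overlap for Cox7a2.

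The difference between the 2 isoforms' log2 values was taken within each array and then compared between the groups, for 6 pairs. The size of this value depends on the probes, so that only its change between the groups was read. For Cox7a1 minus Cox7a2 it was 4.73, 5.06 and 4.89 in wild type and 4.36, 4.40 and 4.44 in FRG1 muscle. The groups did not overlap and differed by -0.49 ± 0.10 (exact permutation test, 3 against 3, two-sided p = 0.1, the smallest this design allows, and 0.36 adjusted over the 6 pairs). For Cox8b minus Cox8a it was 4.22, 4.22 and 3.68 in wild type and 3.76, 3.73 and 3.67 in FRG1 muscle, with the wild type array Sample923 among the FRG1 values, and the groups differed by -0.32 ± 0.18 (exact p = 0.3). For Cox6a2 minus Cox6a1 it was 4.26, 4.29 and 4.31 in wild type and 4.20, 4.29 and 4.25 in FRG1 muscle, a difference of -0.04 ± 0.03 (exact p = 0.3). Cox4i2 minus Cox4i1, in which the Cox4i2 probe was dim, differed by -0.46 ± 0.24 (exact p = 0.2). The c subunits Atp5g1, Atp5g2 and Atp5g3, which encode the same mature ring protein, differed between the groups by -0.08 ± 0.13, -0.01 ± 0.12 and -0.03 ± 0.12. Against Atp5g2, Atp5g1 differed by -0.07 ± 0.06 (exact p = 0.2) and Atp5g3 by -0.02 ± 0.10 (exact p = 0.9).

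Other nuclear genes of mitochondrial energy metabolism were read in 4 lists. Of 15 measured genes of the citric acid cycle and pyruvate dehydrogenase, 0 were higher and 3 were lower. All 15 fold changes were below 0 with a median of -0.22, where 5563 of all 10287 genes were below 0. With median scaling 2 were above 0 and the median was -0.16. With probes averaged, and without Sample906, Sample872, Sample923, Sample873 or Sample871, 1 was above 0. The number lower ran from 1 to 4 over the alternative settings, and was 1 without Sample872, Sample923, Sample873 or Sample871. The share of all genes called lower was 7.23%. At an unadjusted limma p under 0.05, 0 of the list were higher and 33.3% were lower, against 14.2% and 16.3% of all genes. Idh3a, the catalytic subunit of NAD-dependent isocitrate dehydrogenase, read 11.33, 11.56 and 11.61 in wild type and 10.44, 10.51 and 10.70 in FRG1 muscle. The groups stood well apart, and the level was 1.93-fold higher in wild type muscle (-0.95 ± 0.13, limma adjusted p = 0.00153). A second Idh3a probe differed by only -0.20 ± 0.13 (adjusted p = 0.356). Pdhb, the beta subunit of the E1 part of pyruvate dehydrogenase (-0.70 ± 0.19, adjusted p = 0.0385), and Idh3g, a regulatory subunit of isocitrate dehydrogenase (-0.49 ± 0.14, adjusted p = 0.0474), were also lower. A second Pdhb probe differed by -0.01. The Pdhb and Idh3g calls each held in 4 of 13 alternative settings.

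The transport list held 10 measured genes, with 1 higher, 2 lower and a median of -0.03, where 7.53% of all genes were higher and 7.23% lower. At an unadjusted limma p under 0.05, 10% of the list were higher and 20% were lower, against 14.2% and 16.3% of all genes. Slc25a5, the widely expressed adenine nucleotide translocase, read 11.30, 11.45 and 11.55 in wild type and 12.34, 12.13 and 12.27 in FRG1 muscle. It was 1.75-fold higher in FRG1 muscle (0.81 ± 0.12, limma adjusted p = 0.00256), with no overlap. Slc25a4, the heart and muscle translocase, read 11.15, 10.78 and 10.76 in wild type and 10.46, 10.28 and 10.49 in FRG1 muscle, and was lower (-0.48 ± 0.14, adjusted p = 0.0498), a call that held in 4 of 13 alternative settings. Vdac3, an outer membrane channel, read 9.47, 9.25 and 9.61 in wild type and 8.64, 8.64 and 8.69 in FRG1 muscle, and was 1.72-fold higher in wild type (-0.79 ± 0.13, adjusted p = 0.00358). The Slc25a5, Vdac3 and Idh3a calls held in all 13 alternative settings.

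**Figure D5:**
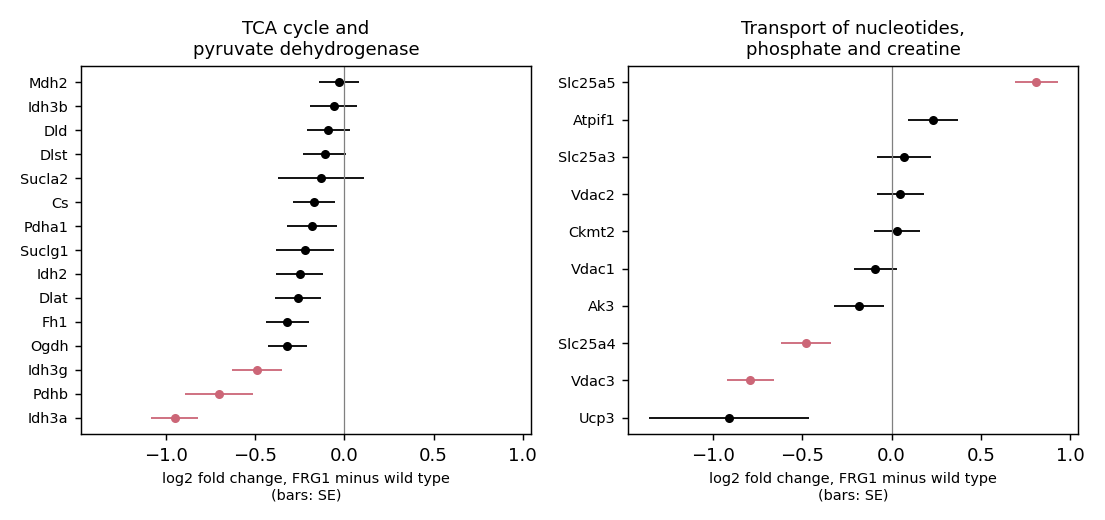
Log2 fold change (x axis, FRG1 minus wild type) with its SE for the 15 measured genes of the citric acid cycle and pyruvate dehydrogenase (left) and the 10 transport genes (right); called genes are coloured. All 15 points on the left lie below 0, and Slc25a5 and Vdac3 lie on opposite sides on the right.

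Assembly factors build the complexes without remaining in them. Of 42 measured, 1 was higher and 1 lower, with a median of 0.05, where 7.53% of all genes were higher and 7.23% lower. At an unadjusted limma p under 0.05, 11.9% of them were higher and 9.52% were lower, against 14.2% and 16.3% of all genes. The higher one was Cox19, a protein needed for complex IV assembly in yeast, with 9.30, 9.56 and 9.77 in wild type and 10.28, 10.19 and 10.18 in FRG1 muscle. The groups did not overlap (0.67 ± 0.14, limma adjusted p = 0.0124), and the call was lost only without the FRG1 array Sample873 (adjusted p = 0.0602). The lower one was Ttc19, a complex III assembly factor (-0.39 ± 0.11, adjusted p = 0.0448), a call that held in 5 of 13 alternative settings. Of 21 measured regulators of mitochondrial genes, 0 passed the limma test. At an unadjusted p under 0.05, 23.8% were higher and 14.3% were lower, against 14.2% and 16.3% of all genes. The list's median was -0.01, with 9 above 0 and 12 below, and with median scaling the median was 0.14 and 2 were called higher. With an offset of 50, with probes averaged and without Sample906, 1 was called higher. With detection on all 6 arrays, with probes averaged and without Sample872 or Sample874, 1 was called lower. The smallest p-values below 0 were those of Twnk, the mitochondrial DNA helicase (-0.49 ± 0.14, adjusted p = 0.0501), and Gabpa, the DNA-binding subunit of GABP (-0.47 ± 0.16, adjusted p = 0.0882). Above 0, the smallest p-value was that of Ppargc1b (0.56 ± 0.17, adjusted p = 0.0554), whose groups did not overlap. Ppargc1a, which encodes the coactivator PGC-1alpha, differed by 0.47 ± 0.22 (adjusted p = 0.191). Tfam, the mitochondrial DNA packaging and transcription factor, differed by 0.19 ± 0.12 (adjusted p = 0.336). The groups stood apart with FRG1 higher for 7 of the 21 regulators and lower for 2, against 16.9% and 19.8% of all genes.

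Markers of the cells that make up the muscle are given beside these values. Over all genes, 7.53% were called higher and 7.23% lower. The summed signals are of raw intensities, neither background-corrected nor normalized. Of 9 muscle fibre markers, 0 were higher and 1, Myh4, was lower, with a median of 0.01 and a summed signal of 164000 to 184000 in wild type and 159000 to 184000 in FRG1 muscle. Of 7 slow fibre markers, 2 were higher (Tnnt1 and Tnni1) and 1 was lower (Myl3), and the summed signal was 18900 to 24500 in wild type and 23400 to 25800 in FRG1 muscle. All 8 measured macrophage markers were higher, with a median of 0.75 and a summed signal of 1620 to 2220 in wild type and 4410 to 5900 in FRG1 muscle. Of 8 endothelial markers 3 were lower (summed signal 4090 to 5590 against 3570 to 4620), of 7 smooth muscle and pericyte markers 3 were lower (5330 to 8830 against 5920 to 6860), and of 5 tendon markers 4 were lower (4340 to 5320 against 2520 to 3880). Of 7 fibroblast markers 1 was higher and 1 lower (20500 to 27000 against 19200 to 28000). Of 4 measured adipocyte markers 1, Cidea, was higher (342 to 578 against 479 to 677), and the brown fat marker Ucp1 was detected on 0 of 6 arrays. Their part in the subunit values was not tested.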

How the data were processed

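Muscle RNA from 3 wild type and 3 FRG1 samples was measured on 1 array each. The authors deposited, per the file headers, unnormalized signal intensity with a detection p-value per array for 46632 probes. The authors also deposited processed intensity values. Per the submitters' processing notes lumi is named, and its role and version are not stated further. Intensities were background-corrected by detection p, given an offset of 16, quantile-normalized and put on the log2 scale with neqc in limma 3.58.1 (R 4.3.3). The 19563 probes with detection p under 0.05 on at least 3 arrays were fitted with lmFit and eBayes, and p-values were adjusted by Benjamini-Hochberg over all of them, with a threshold of 0.05. The probe with the highest mean stood for a gene. Symbols came from the platform annotation, which gave 29976 probes 1 symbol, 10 several and 16646 none. Of these symbols, 29921 were matched by gene ID to RefSeq (GRCm38.p6).

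Members and lists were chosen with earlier results of these data known. The genes named were those past the threshold, the largest difference each way in each complex, the isoform pairs, Sdha to Sdhd, Cyc1, genes whose probes disagreed, and up to 3 called genes per other list. Ndufs7, Ndufs3, Ndufb2, Ndufa3, Sdhd, Uqcrq, Atp5b, Twnk, Gabpa, Ppargc1b, Ppargc1a, Tfam and the marker genes named were chosen after their values were seen. So were the groupings within complexes I and V. Isoform pairs were tested with an exact permutation test. Alternatives covered scaling, offset, detection filter, the authors' processed values (floored at 16), probe averaging and leaving out each array. Labels do not say how the animals were bred or handled, so the p-values reflect no more than the spread among these samples, and the number of arrays limits the precision. The limma step was checked on simulated data. Promoter motifs were searched with Python 3.11.15.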

Additional observations from a re-analysis of the deposited data

How the results depend on the processing

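No paired analysis was possible because no sample number occurs in both groups. With median scaling the median of all tested probes was 0.10, a shift of 0.13 from the -0.02 of the quantile fit, and 79.1% of calls were higher instead of 51.4%. In that setting 1 subunit probe and 1 subunit gene (Uqcrfs1) were lower. The median over the 73 subunit genes was 0.01, below the 0.10 of all tested probes, and the medians were 0.00 for complex I and 0.03 for complex V. The isoform differences there were -0.18 for Cox6a2 and Cox6a1, -0.63 for Cox7a1 and Cox7a2, -0.18 for Atp5g1 and Atp5g2 and -0.15 for Atp5g3 and Atp5g2. An offset of 50 gave 6 lower probes and 5 lower genes (Cox7a1, Ndufa3, Ndufb11, Ndufv3 and Uqcrfs1). The authors' processed values gave 1 lower probe and 1 lower gene (Cox7a1). Averaging probes gave 5 lower genes (Atp5j, Cox7a1, Ndufa3, Ndufb11 and Uqcrfs1) and -0.09 for Cox6a2 and Cox6a1. Cyclic loess also gave -0.09 for that pair. The cause of these changes was not tested.

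Leaving out 1 array at a time gave 0 to 3 lower and 0 to 2 higher subunit probes, and 0 to 2 lower and 0 to 1 higher genes. Without the FRG1 array Sample871 the Ndufb11, Uqcrfs1, Ndufa10 and Ndufv3 probe calls were all lost. The 1 higher gene was Cox8a without the wild type array Sample923. The medians ran from -0.09 to 0.01 for complex I, -0.15 to -0.02 for II, -0.12 to -0.02 for III, 0.01 to 0.06 for IV and -0.02 to 0.02 for V. The isoform differences ran from -0.06 to -0.01 for Cox6a2 and Cox6a1, -0.57 to -0.41 for Cox7a1 and Cox7a2, -0.50 to -0.23 for Cox8b and Cox8a, and -0.63 to -0.28 for Cox4i2 and Cox4i1. They ran from -0.11 to -0.03 for Atp5g1 and Atp5g2 and from -0.06 to 0.06 for Atp5g3 and Atp5g2. Over the named genes, 329 values kept their direction and side of the threshold, 48 lost and 9 gained a call, and 16 uncalled values changed sign. Probes near background, such as that of Uqcrfs1, are limited by signal.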
